A study of Mus musculus with 10 samples.

Results

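Genes of mitosis and the spindle were examined as a fixed list of 38 symbols, all of which are among the 21956 genes of the deposited table. The list was drawn up by name, without a threshold on any measured value, but with earlier results of these data known. It covers 8 roles from entry into mitosis to its exit. Poly(A) RNA was sequenced from gastrocnemius, a calf muscle, of wild-type (WT) Mus musculus, with 5 Sham and 5 HLI samples. The label HLI is read here as hindlimb ischaemia, an interrupted blood supply to the leg, which the labels abbreviate only. Both groups carry the same WT genotype, and no age, sex, strain or time after treatment is given in the labels. Whether the 5 samples of a group are 5 animals is not in the labels, so a p-value reflects only how far these samples spread, and that spread may be technical. Muscle fibre RNA was abundant in every library: 11 fibre marker genes such as Acta1 and Ckm summed to between 46640.0 and 142937 CPM in the 10 libraries. CPM are counts per 1000000 counts of a library, with library sizes scaled by TMM.

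A dividing cell makes the proteins of mitosis late in its cycle and removes them as it finishes. Cyclin-dependent kinase 1 with cyclins A and B drives entry, kinetochores then fasten chromosomes to the spindle, the spindle checkpoint holds back anaphase until they are fastened, and the anaphase-promoting complex ends the process by marking cyclin B and securin for destruction. Transcription of these genes is kept off in resting cells by the DREAM complex and switched on by B-MYB, FOXM1 and the factor NF-Y, through the CCAAT box and the cell cycle homology region (CHR) near their start sites. Adult muscle fibres do not divide, whereas muscle stem cells, endothelial cells, fibroblasts and leukocytes can.

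RefSeq promoters of build GRCm38.p6, from 250 bases before to 50 bases after the start of a gene, were at hand for 31 of the 38 members. A CHR core, TTTGAA or TTCGAA on either strand, was found in 26 of 31 (83.9%), against 21.7% of 27025 genes with a promoter in the table and 16.6% of the 10453 of these that passed the filter on low counts. The CCAAT box, CCAAT on either strand, lay in 24 of 31 (77.4%), against 41.1% and 42.4%. Both motifs were present in 22 of 31 members (71%), against 8.61% and 6.76%. An E2F site, TTTCGCGC, TTTGGCGC, TTTCCCGC or TTTGCCGC on either strand, was found in 1 member, Cdk1 (3.23%), against 2.6% and 4.52%. It was found in 13 of 31 genes of DNA replication (41.9%). In the replication list the CHR core lay in 8 of 31 promoters and the CCAAT box in 19 of 31, so the CCAAT box was common to both lists and the CHR core was more frequent among the members. Of 47 promoters of other mitotic genes, 31 held a CHR core (66%), 31 a CCAAT box (66%) and 22 both (46.8%). Among the 16 genes of the anaphase-promoting complex list, 3 of 15 promoters held a CHR core and 0 held both motifs. Birc5, Nuf2 and Nusap1 had neither motif in these windows, and Aurka had both. These matches describe letters in a window and not binding, and no test was made of the shares. With only the 250 bases before the start counted, the CHR core was left in 11 members (35.5%, against 19.6% of all) and in the other members with a core each copy reached past the start. On that count the core lay in 40.4% of other mitotic genes and 44.4% of regulators of the mitotic gene programme, more often than in the members.

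The RefSeq stretches below (build GRCm38.p6) lie before the start of 8 members picked for display, not by their rank in the results. They are written 5′ to 3′ on the strand of the gene, with CCAAT boxes and CHR cores of either orientation in capitals. Before the start only 11 of the 31 members with a promoter held a CHR core, and most of the 8 printed do, so they are not typical. Cdk1, Cdc20 and Prc1 show the arrangement of a CCAAT box followed by a CHR core, Top2a and Mki67 hold several of each, Ube2c carries them in reverse orientation (ATTGG and TTCAAA), Ccnb1 holds CCAAT boxes alone, and Aurka holds its CHR core after the start, outside the stretch printed.
Cdk1, chr10:69352913-69353012, - strand: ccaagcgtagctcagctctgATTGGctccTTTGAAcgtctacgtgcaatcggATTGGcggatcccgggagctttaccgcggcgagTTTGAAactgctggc
Cdc20, chr4:118437344-118437443, - strand: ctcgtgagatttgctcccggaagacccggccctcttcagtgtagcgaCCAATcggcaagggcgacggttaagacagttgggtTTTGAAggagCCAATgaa
Prc1, chr7:80294376-80294475, + strand: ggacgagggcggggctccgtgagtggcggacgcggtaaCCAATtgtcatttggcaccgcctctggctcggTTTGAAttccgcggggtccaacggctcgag
Mki67, chr7:135716460-135716579, - strand: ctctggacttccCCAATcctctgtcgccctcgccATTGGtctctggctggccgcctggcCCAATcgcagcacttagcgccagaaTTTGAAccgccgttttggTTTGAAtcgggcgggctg
Top2a, chr11:99024190-99024429, - strand: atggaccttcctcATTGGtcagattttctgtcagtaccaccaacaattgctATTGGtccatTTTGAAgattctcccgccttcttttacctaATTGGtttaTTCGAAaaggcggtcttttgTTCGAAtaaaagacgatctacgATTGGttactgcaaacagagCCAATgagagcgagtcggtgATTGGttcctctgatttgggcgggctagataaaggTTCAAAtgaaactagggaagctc
Ube2c, chr2:164769829-164769928, + strand: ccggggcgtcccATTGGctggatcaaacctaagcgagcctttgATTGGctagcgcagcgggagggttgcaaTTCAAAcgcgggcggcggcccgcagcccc
Ccnb1, chr13:100786507-100786606, - strand: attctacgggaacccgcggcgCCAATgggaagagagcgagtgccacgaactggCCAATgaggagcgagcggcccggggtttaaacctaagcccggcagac
Aurka, chr2:172370571-172370670, - strand: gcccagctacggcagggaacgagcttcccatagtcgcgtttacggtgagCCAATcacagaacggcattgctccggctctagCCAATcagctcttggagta

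**Figure D1:**
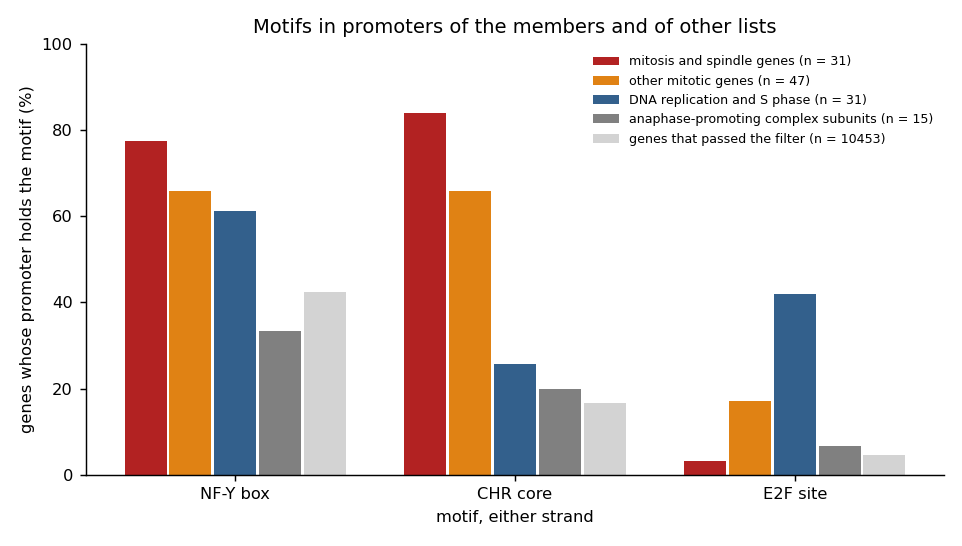
Share of genes (percent, bars from 0) whose RefSeq promoter holds the NF-Y box (the CCAAT box), the CHR core or the E2F site on either strand, for the members and 4 other sets of genes, with the number of promoters in brackets. The members reach 83.9% for the CHR core, and the replication list reaches 41.9% for the E2F site.

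The 10 libraries held totals of 16556385 to 22136299 estimated counts, of which the 38 members took between them 1222 to 12665. Single members had between 1 count (Cdc25c in Sham replicate 4, Ttk and Haspin in Sham replicate 5) and 2019 counts (Mki67 in HLI replicate 3). TMM scaling took the library size of HLI replicate 3 from 16788953 to 20553020, which lowers every CPM value of that library. All 38 members passed the filter on low counts, which kept 13404 genes, and 29 of them were above the level of the filter in every Sham library. The other 9 passed only with the help of HLI libraries.

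Transcripts of the members stood higher in HLI than in Sham for 37 of 38 genes, by a median of 2.82-fold, and the exception was Aurka. No member passed the edgeR quasi-likelihood test with Benjamini-Hochberg adjustment over all genes: 0 of 38 were called, and 0 of 13404 genes were (0% called), with adjusted p from 0.29 to 0.46 among the members. At an unadjusted p under 0.05, 35 of the 38 were higher in HLI, beside 10.7% of all genes tested. A log2 fold change above 1 was reached by 36, beside 3.42% of all genes, and one above 0 by 37, beside 53.8%. In 9 members (Cdk1, Haspin, Mki67, Cdca2, Cenpf, Ndc80, Aspm, Nusap1 and Shcbp1) the lowest HLI library exceeded the highest Sham library, beside 0.776% of all genes. Without Sham replicate 1 that number was 16, beside 3.04% of all genes, and on the deposited TPM without further scaling it was 5, beside 1.11%. Of the 9, 4 were among the 29 members above the filter level in every Sham library (median log2 fold change 1.44). The other 5 (Haspin, Cdca2, Ndc80, Aspm and Shcbp1) were among the 9 members below it in some Sham library (median 1.89). At an unadjusted p under 0.05, 28 of the 29 and 7 of these 9 were higher. In the other direction, 0 members were lower at an unadjusted p under 0.05, beside 6.15% of all genes, and 0 had all HLI libraries under all Sham libraries, beside 0.873%. DESeq2, run as an alternative, called 11 members higher at adjusted p from 0.0145 to 0.0496, beside 0.261% of all genes called higher and 0.313% called in either direction. The 11 were Cdk1, Plk1, Haspin, Mki67, Top2a, Cdca2, Cenpf, Ndc80, Aspm, Nusap1 and Shcbp1. The median log2 fold change was 1.5 for the members and 0.03 for all genes tested. In bulk muscle, a larger share of dividing cells and more of these RNAs in each dividing cell cannot be told apart.

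**Figure D2:**
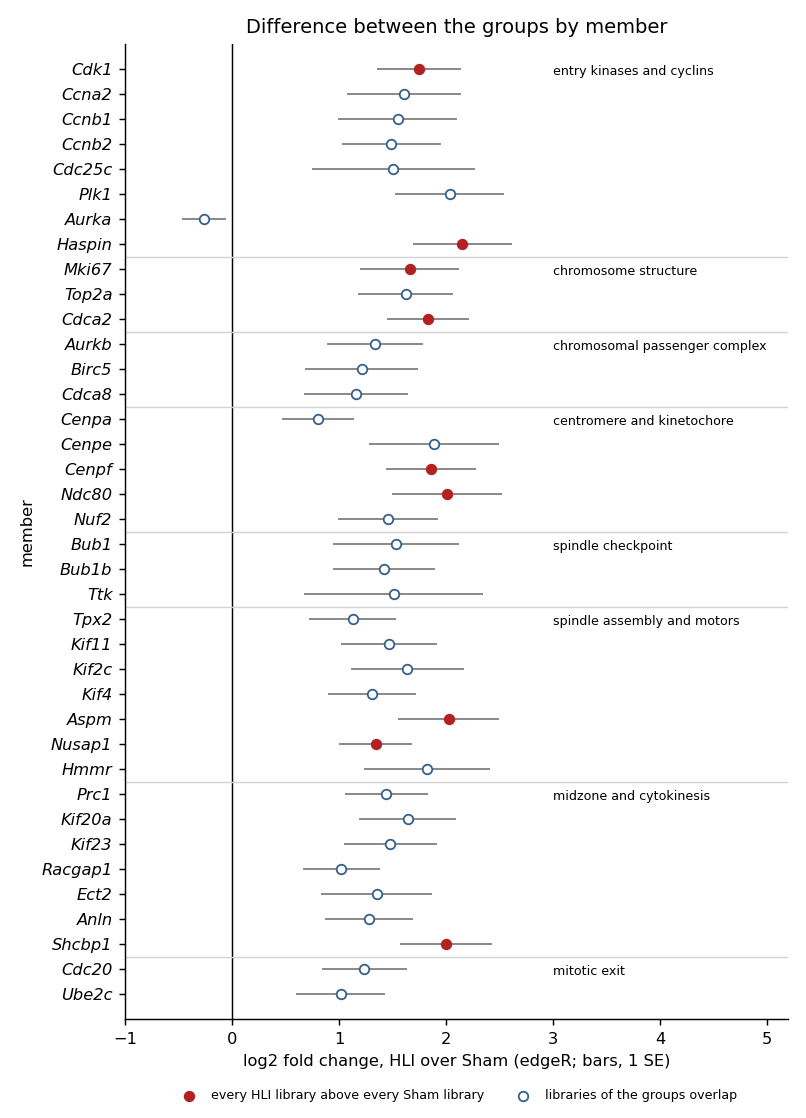
Log2 fold change of HLI over Sham (horizontal axis; bars, 1 standard error of the edgeR fit, n = 5 per group) for each member, in blocks by role. Values lie between -0.26 for Aurka and 2.15 for Haspin, and filled points mark the 9 members whose groups do not overlap.

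Among the 8 genes of entry into mitosis, Cdk1 (ENSMUSG00000019942), the kinase that commits the cell to divide, had the highest level per transcript length in HLI, with 4.61 ± 2.31 TPM in Sham and 19.1 ± 11.6 TPM in HLI (transcripts per 1000000, adjusted for length; SD, n = 5). It stood at 5.79, 2.37, 4.23, 3.32 and 2.25 CPM in Sham replicates 1 to 5 and at 19.5, 6.46, 19.2, 6.03 and 9.24 CPM in HLI replicates 1 to 5. The groups did not overlap, although HLI replicate 4 only just exceeded Sham replicate 1, and HLI replicates 1 and 3 were the highest. The log2 fold change was 1.75 (SE 0.39), with edgeR adjusted p = 0.29. HLI replicates 1 and 3 were also the highest libraries for its partners, with log2 fold changes of 1.61 for Ccna2 (cyclin A2), 1.55 for Ccnb1 and 1.49 for Ccnb2 (cyclins B1 and B2). Ccna2 ranged from 2.98 to 11.8 CPM (Sham) and 7.39 to 36.5 CPM (HLI), and Ccnb2 from 1.45 to 5.73 CPM (Sham) and 4.24 to 16.5 CPM (HLI). Ccnb1 reached 21.2 CPM in HLI replicate 1 and 11.8 in HLI replicate 3, while HLI replicate 2 (2.48 CPM) and replicate 4 (2.87 CPM) did not leave the range of the Sham libraries, 1.52 to 4.51 CPM. Without HLI replicate 1 its log2 fold change was 0.94. Cdc25c, the phosphatase that removes the inhibitory phosphates of CDK1, rested on few counts, 1 to 16 in Sham and 4 to 54 in HLI, and its log2 fold change of 1.51 (SE 0.76, unadjusted p = 0.072 in edgeR) was 0.89 without HLI replicate 1.

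Plk1, the polo kinase that activates mitotic entry and matures centrosomes, stood at 2.87, 1.21, 2.36, 1.54 and 0.861 CPM in Sham replicates 1 to 5 and at 15, 2.42, 10.4, 3.22 and 5.27 CPM in HLI replicates 1 to 5. Of the HLI libraries only replicate 2 fell inside the Sham range (log2 fold change 2.03, SE 0.51, edgeR adjusted p = 0.29). Haspin, the kinase that marks histone H3 at centromeres, had the largest log2 fold change of the list at 2.15 (SE 0.46, edgeR adjusted p = 0.29). It stood at 0.702, 0.484, 0.697, 0.572 and 0.0663 CPM in Sham replicates 1 to 5 and at 2.76, 1.33, 3.89, 1.93 and 1.52 CPM in HLI replicates 1 to 5. All HLI libraries were above all Sham libraries, on counts of 1 to 13 in Sham and 23 to 80 in HLI. Haspin is a gene without introns that lies inside Itgae on the opposite strand in the GENCODE annotation. Itgae stood at 1.10 ± 0.168 CPM in the Sham group against 1.10 ± 0.302 in the HLI group (SD, n = 5), a log2 fold change of -0.01.

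Aurka, the centrosome and spindle pole kinase, went against the rest of the list. It stood at 8.78, 10.1, 11.4, 9.44 and 10.7 CPM in Sham replicates 1 to 5 and at 13.5, 6.46, 6.96, 8.31 and 6.79 CPM in HLI replicates 1 to 5. HLI replicate 1 was the highest of all libraries, whereas in CPM the other 4 HLI libraries lay below every Sham library, including HLI replicate 3, which was the highest or the next highest library for every other member. On the deposited TPM, HLI replicate 3, at 8.74 TPM, lay above Sham replicate 1 (8.66 TPM) and Sham replicate 4 (7.83 TPM), so that order depends on the scale. The log2 fold change was -0.26 (SE 0.20, edgeR adjusted p = 0.46), and -0.50 without HLI replicate 1, while on log2(TPM + 0.1) it was -0.11. Per length it was the most abundant member in Sham, at 9.15 ± 1.12 TPM in Sham and 8.80 ± 3.22 TPM in HLI. Its relative Aurkb, the kinase of the chromosomal passenger complex, had 1.77 ± 0.744 TPM in Sham and 5.26 ± 3.49 TPM in HLI and a log2 fold change of 1.33 (SE 0.45).

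**Figure D3:**
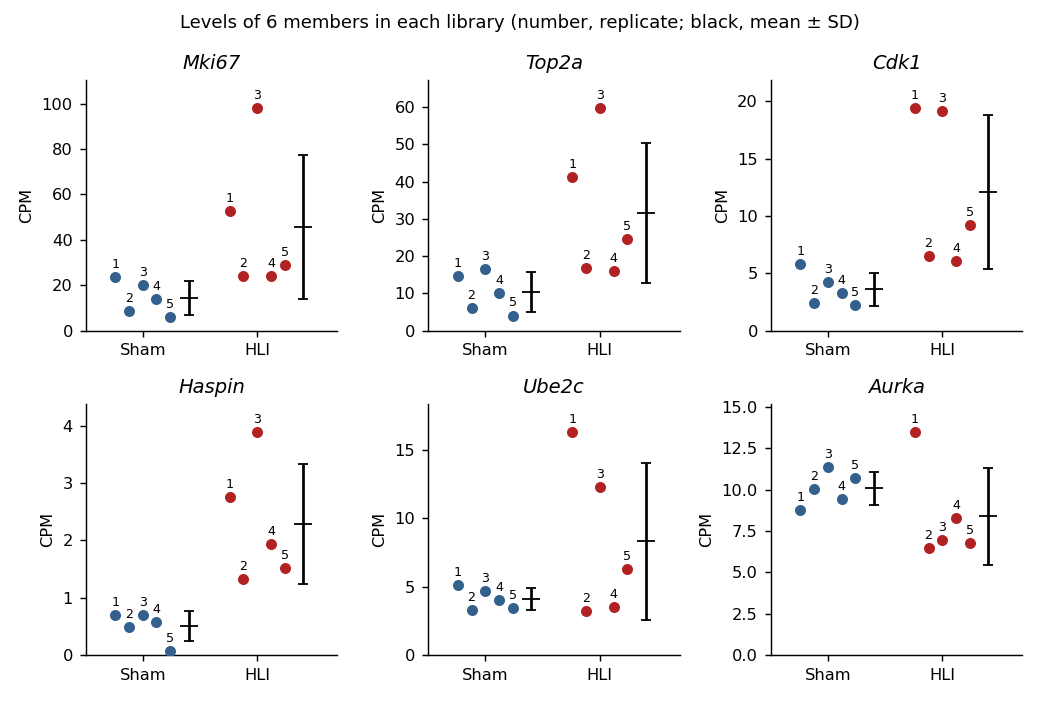
Levels (CPM, linear axis from 0) of 6 members in each library, with the replicate number above each point and the mean ± SD of 5 libraries in black. HLI replicates 1 and 3 are the highest libraries in 5 of the 6 panels, and in Aurka 4 of 5 HLI libraries lie below the Sham libraries on this scale, 3 of 5 on TPM.

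The 3 genes of chromosome structure were all higher at an unadjusted p under 0.05. Mki67, which encodes the proliferation antigen Ki-67 that coats mitotic chromosomes, stood at 23.8, 8.77, 19.9, 13.9 and 6.03 CPM in Sham replicates 1 to 5 and at 52.8, 24.1, 98.2, 24.2 and 29.1 CPM in HLI replicates 1 to 5. The lowest HLI library was only just above the highest Sham library, and HLI replicate 3 had 98.2 CPM against a Sham median of 13.9 CPM (log2 fold change 1.66, SE 0.46, edgeR adjusted p = 0.29). Top2a, the topoisomerase that untangles sister chromatids, was at 14.7, 6.01, 16.5, 10.1 and 4.04 CPM in Sham replicates 1 to 5 and at 41.3, 16.7, 59.9, 15.9 and 24.6 CPM in HLI replicates 1 to 5. Here HLI replicate 4 lay below Sham replicate 3, and the other 4 HLI libraries lay above all Sham libraries (log2 fold change 1.62, SE 0.45, edgeR adjusted p = 0.29). Cdca2, which brings a protein phosphatase to chromatin at mitotic exit, had the smallest unadjusted p of the list, 0.00044 in edgeR, and an edgeR adjusted p = 0.29. It was measured at 1.64, 0.581, 0.697, 1.37 and 1.13 CPM in Sham replicates 1 to 5 and at 5.62, 3.35, 5.60, 1.93 and 2.72 CPM in HLI replicates 1 to 5, without overlap between the groups, and with a log2 fold change of 1.83 (SE 0.38).

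The chromosomal passenger complex corrects faulty attachments of chromosomes and later guides cytokinesis, and its genes Aurkb, Birc5 and Cdca8 had log2 fold changes of 1.33, 1.21 and 1.15. Birc5 (survivin) stood at 3.86, 1.55, 3.11, 1.89 and 1.39 CPM in Sham replicates 1 to 5 and at 10.6, 1.39, 9.29, 2.46 and 3.59 CPM in HLI replicates 1 to 5. Cdca8 (borealin) stood at 3.22, 1.65, 2.52, 2.17 and 1.79 CPM in Sham replicates 1 to 5 and at 9.97, 2.42, 8.17, 1.29 and 3.37 CPM in HLI replicates 1 to 5. HLI replicates 1 and 3 were above all Sham libraries in both genes, joined by HLI replicate 5 in Cdca8 alone, and the lowest of the 10 libraries belonged to HLI, replicate 2 for Birc5 and replicate 4 for Cdca8. Unadjusted p in edgeR was 0.041 and 0.035. Aurkb ranged from 0.729 to 2.81 CPM (Sham) and 2.08 to 9.48 CPM (HLI). Without HLI replicate 1 the log2 fold change of Cdca8 was 0.75.

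Genes of the centromere and kinetochore had the highest median log2 fold change of the 8 roles, 1.86. Cenpf, a large protein of the outer kinetochore, stood at 3.45, 1.74, 2.84, 2.17 and 2.92 CPM in Sham replicates 1 to 5 and at 10.2, 3.75, 21.1, 6.32 and 6.09 CPM in HLI replicates 1 to 5, with no overlap between the groups (log2 fold change 1.86, SE 0.42, edgeR adjusted p = 0.29). Ndc80, which binds the microtubule ends, stood at 0.936, 0.484, 0.804, 0.801 and 0.464 CPM in Sham replicates 1 to 5 and at 3.31, 1.67, 6.67, 1.05 and 1.36 CPM in HLI replicates 1 to 5, again without overlap (log2 fold change 2.01, SE 0.51, edgeR adjusted p = 0.29). In both of these genes HLI replicate 3 was far above the other libraries. Nuf2, the partner of NDC80, was at 3.45, 1.07, 2.89, 2.40 and 0.928 CPM in Sham replicates 1 to 5 and at 9.20, 3.87, 10.1, 2.46 and 3.91 CPM in HLI replicates 1 to 5, so that 4 HLI libraries were above Sham and HLI replicate 4 was not. Cenpe, a kinetochore motor, had a log2 fold change of 1.89 (SE 0.61) and ranged from 0.331 to 3.28 CPM (Sham) and 2.60 to 13.8 CPM (HLI). Cenpa, the histone variant that defines the centromere, had the smallest positive change of the list, 0.80 (SE 0.34, edgeR adjusted p = 0.29). It was at 6.03, 3.34, 4.07, 4.06 and 3.38 CPM in Sham replicates 1 to 5 and at 13.3, 5.37, 9.20, 3.45 and 5.05 CPM in HLI replicates 1 to 5, and without HLI replicate 1 the change was 0.47.

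The spindle checkpoint genes had no member whose groups were free of overlap. Bub1b, which encodes BUBR1, the inhibitor of the anaphase-promoting complex, stood at 6.96, 2.81, 4.77, 3.66 and 2.25 CPM in Sham replicates 1 to 5 and at 20.4, 4.73, 17.7, 3.81 and 8.21 CPM in HLI replicates 1 to 5 (log2 fold change 1.42, SE 0.48, edgeR adjusted p = 0.29). Bub1, the kinetochore kinase that recruits it, was at 1.64, 0.484, 1.82, 1.54 and 0.265 CPM in Sham replicates 1 to 5 and at 3.58, 1.62, 8.03, 1.52 and 1.90 CPM in HLI replicates 1 to 5. HLI replicates 2 and 4 lay inside the Sham range for both. In Bub1 HLI replicate 3 stood far above any other library, and without it the log2 fold change went from 1.53 to 0.90. Ttk, the MPS1 kinase at the head of the checkpoint, ranged from 0.0663 to 1.88 CPM in Sham and from 0.115 to 5.21 CPM in HLI, with a log2 fold change of 1.51 (SE 0.84) and an unadjusted p of 0.097 in edgeR. Without HLI replicate 3 the log2 fold change of Ttk was 0.92. Ttk, Cdc25c and Aurka were the 3 members not under an unadjusted p of 0.05.

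All 7 genes of spindle assembly and its motors were higher at an unadjusted p under 0.05. Aspm, which holds microtubules at the spindle poles, stood at 2.75, 0.872, 2.46, 1.83 and 0.530 CPM in Sham replicates 1 to 5 and at 7.71, 3.98, 13.6, 3.86 and 5.33 CPM in HLI replicates 1 to 5, with no overlap (log2 fold change 2.03, SE 0.47, edgeR adjusted p = 0.29). Nusap1, a bundler of spindle microtubules, was at 4.33, 1.79, 4.07, 3.89 and 2.65 CPM in Sham replicates 1 to 5 and at 10.8, 5.25, 14.4, 4.98 and 6.90 CPM in HLI replicates 1 to 5, also with no overlap (log2 fold change 1.34, SE 0.34, edgeR adjusted p = 0.29). Tpx2, which starts microtubule growth around chromosomes and activates Aurora A, was the most abundant of these 7 per length, at 3.32 ± 1.62 TPM in Sham and 8.53 ± 5.73 TPM in HLI. In CPM it stood at 11.6, 5.38, 7.98, 7.38 and 3.38 CPM in Sham replicates 1 to 5 and at 28, 7.27, 22.4, 8.90 and 11.4 CPM in HLI replicates 1 to 5, so that HLI replicates 2, 4 and 5 lay inside the Sham range. The motors Kif11 (which pushes the poles apart), Kif4 and Kif2c (a microtubule depolymerase) and the hyaluronan-mediated motility receptor Hmmr had log2 fold changes of 1.47, 1.30, 1.64 and 1.82. Kif11 ranged from 1.13 to 6.26 CPM (Sham) and 5.66 to 21.4 CPM (HLI), with HLI replicate 2 alone inside the Sham range, and Kif4 from 0.775 to 2.81 CPM (Sham) and 2.22 to 7.64 CPM (HLI), with HLI replicate 4 alone inside it. For Kif2c the span was 0.727 to 1.99 CPM (Sham) and 1.5 to 10.5 CPM (HLI), and for Hmmr 0.630 to 2.30 CPM (Sham) and 1.73 to 12.6 CPM (HLI). Without HLI replicate 1 the value of Kif2c was 1.07, and without HLI replicate 3 that of Hmmr was 1.20.

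The 7 genes of the central spindle and cytokinesis were likewise all higher at an unadjusted p under 0.05, with log2 fold changes from 1.02 to 2.0. Shcbp1, which acts at the midbody, stood at 0.995, 0.630, 1.13, 0.915 and 0.530 CPM in Sham replicates 1 to 5 and at 5.18, 1.33, 5.84, 1.99 and 2.55 CPM in HLI replicates 1 to 5, with every HLI library above Sham (log2 fold change 2.0, SE 0.43, edgeR adjusted p = 0.29). Prc1, the crosslinker of the central spindle, was at 9.89, 3.49, 5.36, 6.69 and 3.11 CPM in Sham replicates 1 to 5 and at 23.5, 8.20, 23.7, 9.07 and 13 CPM in HLI replicates 1 to 5. HLI replicates 2 and 4 lay below Sham replicate 1 but above the other 4 Sham libraries. Racgap1, the GTPase-activating subunit of centralspindlin, was the most abundant of these genes per length, at 4.88 ± 1.52 TPM in Sham and 11.6 ± 7.67 TPM in HLI. Its libraries stood at 8.78, 5.43, 9.81, 8.52 and 5.77 CPM in Sham replicates 1 to 5 and at 27.6, 9.06, 23.2, 7.79 and 10.1 CPM in HLI replicates 1 to 5, and HLI replicates 2 and 4 lay inside the Sham range. Kif23, the motor of the same complex, had a log2 fold change of 1.48 (SE 0.44), Kif20a a log2 fold change of 1.64 (SE 0.45), Anln (anillin) a log2 fold change of 1.28 (SE 0.41) and Ect2, the exchange factor that triggers the contractile ring, a log2 fold change of 1.35 (SE 0.52). Their levels spanned 0.795 to 5.21 CPM (Sham) and 5.04 to 12.1 CPM (HLI) for Kif23, and 2.05 to 7.08 CPM (Sham) and 5.19 to 25.2 CPM (HLI) for Kif20a. Anln spanned 3.58 to 9.89 CPM (Sham) and 7.97 to 29 CPM (HLI), and Ect2 0.872 to 3.92 CPM (Sham) and 2.66 to 13.6 CPM (HLI). In Kif23 HLI replicate 4 alone lay inside the Sham range, in Ect2 HLI replicate 2 alone, and in Kif20a and Anln both of these did.

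The 2 genes of mitotic exit had the lowest median log2 fold change of the 8 roles, 1.13. Cdc20, the activator of the anaphase-promoting complex, stood at 5.50, 1.60, 3.0, 3.89 and 2.19 CPM in Sham replicates 1 to 5 and at 12.2, 4.73, 10.5, 3.45 and 7.17 CPM in HLI replicates 1 to 5 (log2 fold change 1.24, SE 0.39, edgeR adjusted p = 0.29). Ube2c, its ubiquitin-conjugating enzyme, stood at 5.15, 3.29, 4.66, 4.0 and 3.45 CPM in Sham replicates 1 to 5 and at 16.3, 3.23, 12.3, 3.51 and 6.25 CPM in HLI replicates 1 to 5 (log2 fold change 1.02, SE 0.42, edgeR adjusted p = 0.29). HLI replicates 2 and 4 lay inside the Sham range of Cdc20, and for Ube2c HLI replicate 2 was the lowest library of all. Without HLI replicate 1 the log2 fold change of Ube2c was 0.62. Ube2c shares exon sequence on opposite strands with Tnnc2, a troponin gene of fast fibres that was at 4167 ± 777 CPM in the Sham group against 2965 ± 909 in the HLI group. Whether reads were counted by strand is not known from the labels or headers, so reads of the 2 genes cannot be told apart, and the same holds for 9 members in all whose exons overlap another listed gene in GENCODE. The others are Ccna2, Cdc25c, Cdca8, Kif4, Nusap1, Prc1, Kif20a and Cdc20.

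The same pair of HLI libraries led nearly the whole list. The score, the mean over the 38 members of log2 CPM after subtracting each gene's average over the 10 libraries, was 1.57, -0.19, 1.61, -0.07 and 0.39 in HLI replicates 1 to 5 and 0.05, -1.22, -0.28, -0.49 and -1.36 in Sham replicates 1 to 5. HLI replicates 2 and 4 therefore lay below Sham replicate 1, and the groups overlapped. HLI replicates 1 and 3 were the 2 highest libraries in 37 of 38 members, Aurka being the exception. HLI replicate 1 exceeded every Sham library in 38 members, replicate 3 in 37, replicate 5 in 30, and replicates 2 and 4 in 13 each. HLI replicate 3 was the highest library for 18 members, among them Mki67, Top2a, Cenpf and Aspm, and HLI replicate 1 for 20, among them Ccnb1, Plk1, Kif2c and Ube2c. Within Sham, replicate 1 was the highest library for 31 members and replicate 3 for 7, and the lowest library of all 10 was Sham replicate 5 for 21 members and Sham replicate 2 for 12. The coefficient of variation of a member was 47.1% in Sham and 63.5% in HLI (medians over the list), against medians of 15.9% and 21.4% over all genes tested, which include more abundant ones.

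**Figure D4:**
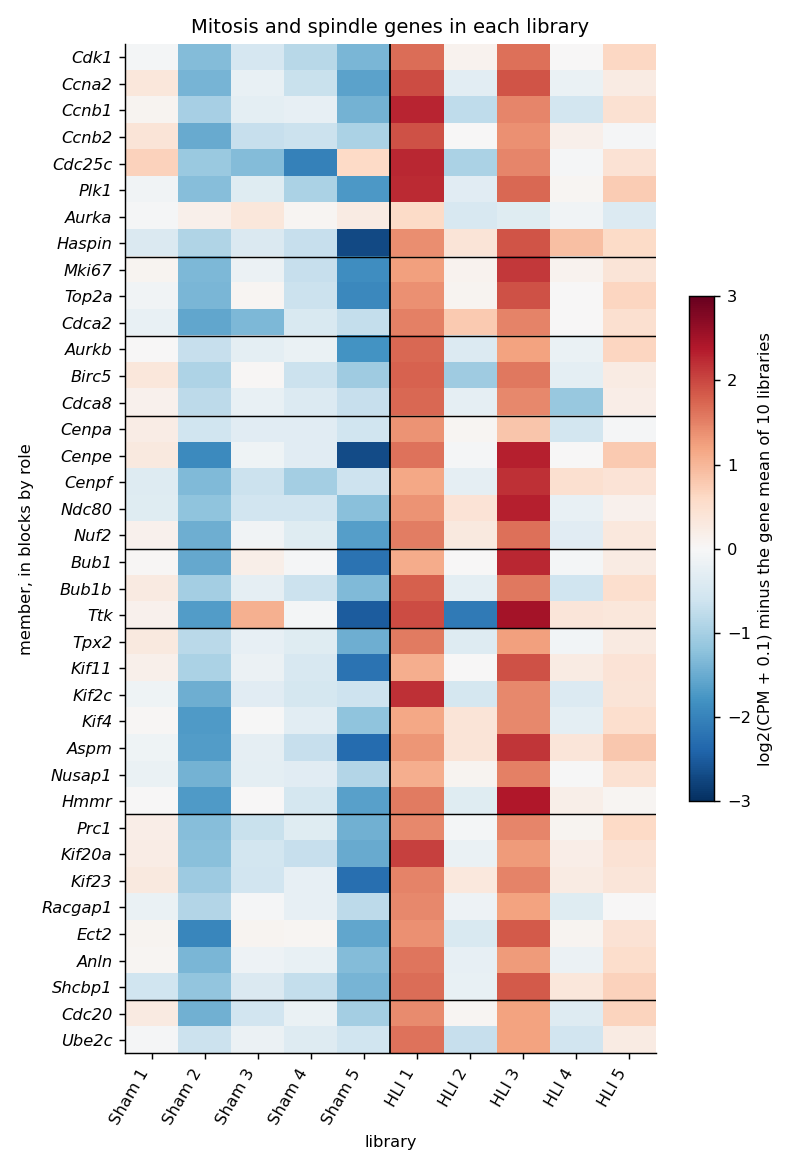
Log2(CPM + 0.1) of each member minus its mean over the 10 libraries (colour, scale centred on 0), with members in rows by role and libraries in columns. HLI replicates 1 and 3 are the highest libraries in every row except Aurka, and Sham replicates 2 and 5 are mostly the lowest.

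The other genes of the cell cycle were read from 6 further lists, in which edgeR called 0 genes in either direction after adjustment over all genes. DESeq2 called 4 of their genes higher (Pbk, Dbf4, E2f7 and E2f8) and 0 lower, beside 0.261% of all genes called higher. Of 54 other mitotic genes 51 passed the filter, 50 had values above 0, and 42 were higher at an unadjusted p under 0.05, with a median log2 fold change of 1.32. Of all genes tested, 53.8% were above 0 and 10.7% were higher at that level. Pbk, a mitotic kinase, stood at 2.05 ± 0.655 CPM in the Sham group against 6.09 ± 3.37 in the HLI group (log2 fold change 1.57, SE 0.37, edgeR adjusted p = 0.29), and Cenpi, a kinetochore protein, had a log2 fold change of 1.77. Below 0 was Pttg1, which encodes securin, the guard of sister chromatid cohesion, at 38.8 ± 7.29 CPM in the Sham group against 28.3 ± 7.61 in the HLI group (log2 fold change -0.46, SE 0.20, edgeR adjusted p = 0.29, unadjusted p = 0.039). Of 37 measured genes of DNA replication, 35 were above 0 and 22 were higher at an unadjusted p under 0.05, with a median of 0.65, beside 1.5 for the members. Dbf4, the activator of the replication kinase CDC7, had 2.20 ± 0.969 CPM in the Sham group against 5.74 ± 2.44 in the HLI group, and Gins2, a subunit of the replicative helicase, 9.57 ± 2.11 CPM in the Sham group against 15 ± 2.87 in the HLI group. In both the HLI libraries were all above the Sham libraries.

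Among 23 regulators of the mitotic gene programme the direction was divided, with 15 above and 8 below 0 and a median of 0.31. At an unadjusted p under 0.05, 9 were higher, beside 10.7% of all genes, and 1 (Nfyc) was lower, beside 6.15%. The activators Foxm1 and Mybl2 (B-MYB) stood at 4.06 ± 2.01 CPM in the Sham group against 9.02 ± 4.18 in the HLI group, and at 0.962 ± 0.430 CPM in the Sham group against 2.29 ± 1.78 in the HLI group, corresponding to log2 fold changes of 1.15 (SE 0.37) for the first and 1.26 (SE 0.54) for the second. E2f7 and E2f8, repressors that are themselves made in cycling cells, reached 1.32 (SE 0.32) and 2.0 (SE 0.51) on the log2 scale, with no overlap between the groups in either. The DREAM subunits E2f4 and Rbl2 (p130) had values of -0.12 (SE 0.14) and -0.18 (SE 0.10). The adjusted p of the 6 genes from Foxm1 to Rbl2 lay between 0.29 and 0.6 in edgeR. Other subunits of DREAM differed in direction: Rbl1 (p107) had 0.90 (SE 0.23, unadjusted p of 0.0023 in edgeR) with no overlap between the groups. Lin9 had 0.42, Lin54 0.39, E2f5, Rbbp4 and Tfdp1 0.05 each, Lin37 -0.05 and Lin52 -0.08. E2f2, at 1.07 (SE 0.27, unadjusted p of 0.0022 in edgeR), had no overlap either. In all, 4 of the 23 regulators had every HLI library above every Sham library, beside 0.776% of all genes. The NF-Y genes Nfya, Nfyb and Nfyc had 0.31 (SE 0.21), -0.03 (SE 0.11) and -0.29 (SE 0.13, unadjusted p of 0.039 in edgeR). The 16 subunits and partners of the anaphase-promoting complex, whose machinery is present in resting cells too, had a median of -0.01, with 7 above and 9 below 0 and 0 higher at an unadjusted p under 0.05. Anapc16 was lower at that level, with -0.25 (SE 0.11). Anapc5, with -0.40 (SE 0.19), had an unadjusted p of 0.056 in edgeR and did not pass it. The G1 list holds 10 genes: the D-type cyclins Ccnd1, Ccnd2 and Ccnd3, the kinases Cdk2, Cdk4 and Cdk6, the phosphatases Cdc25a and Cdc25b, and 2 transcription factors. Of these 4 (Cdk2, Cdk6, Cdc25b and Ccnd3) were higher at an unadjusted p under 0.05, beside 10.7% of all genes, and the median was 0.33. By unadjusted p the first was Cdk2, at 7.09 ± 0.967 CPM in the Sham group against 11.1 ± 2.24 in the HLI group, and the next was Cdk6, at 7.81 ± 2.95 CPM in the Sham group against 14.6 ± 4.11 in the HLI group. The largest log2 fold change was that of Cdc25b, 1.06 (SE 0.37), and cyclin D1 (Ccnd1) had 0.31 (SE 0.15). Of 6 measured inhibitors of cyclin-dependent kinases 2 were higher at an unadjusted p under 0.05, beside 10.7% of all genes. They were Cdkn2d (0.31, SE 0.11) and Cdkn1a, which encodes p21, at 24.8 ± 5.99 CPM in the Sham group against 40.5 ± 17 in the HLI group.

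Markers of cells that muscle can hold were set beside the members. A marker is said to be above 0 where its log2 fold change of HLI over Sham is. The 10 monocyte and macrophage markers were all above 0 and summed to 539 to 1415 CPM in Sham and 746 to 3151 CPM in HLI. By that sum their 2 highest libraries were HLI replicate 1 (3151 CPM) and HLI replicate 3 (2636 CPM), as for the members, while HLI replicate 4, at 746 CPM, was lower than 3 Sham libraries. Lyz2 gave 1551 and 1358 CPM of the 2 highest sums. Adgre1, Cd68, Csf1r, Lyz2, Mpeg1 and Cx3cr1 each had HLI replicates 1 and 3 as their 2 highest libraries, whereas Mrc1, Itgam, Ccr2 and Cd163 did not. Cd163 was at its lowest of all libraries in HLI replicate 3 (14.6 CPM). T and NK cell markers had 6 of 10 genes above the filter, all above 0, and summed to 4.23 to 13.9 CPM and 7.05 to 37.2 CPM, with Cd3e and Ncr1 at 0 in some libraries. HLI replicate 3 was their highest library and HLI replicate 1 their lowest HLI library. Satellite cell and myoblast markers were above 0 in 5 of 8 and summed to 57.6 to 78.8 CPM and 58.6 to 157 CPM, again with HLI replicate 3 highest. Muscle fibre markers were below 0 in 10 of 11 and summed to 110605 to 142937 CPM and 46640.0 to 129491 CPM, lowest in HLI replicate 3. Endothelial markers summed to 1061 to 1792 CPM and 1165 to 1811 CPM, with 6 of 9 above 0, and fibro-adipogenic progenitor markers to 3692 to 4718 CPM and 2340.2 to 6499.9 CPM, with 5 of 7 above 0. Neutrophil markers, with 3 of 6 above 0 and S100a8 and Ly6g at 0 in some libraries, summed to 2.72 to 67.9 CPM and 5.39 to 61.1 CPM. Erythroid precursor markers, with Klf1 and Ahsp at 0 in some libraries, were above 0 in 4 of 4 and summed to 204 to 362 CPM and 238 to 427 CPM. Nearly all of that sum was Tfrc, a gene of many cell types, at 247 ± 58.8 CPM in the Sham group against 291 ± 85 in the HLI group. Alas2 and Slc4a1, which mark the lineage more closely, were highest in HLI replicate 1 (55.3 and 2.98 CPM), and the score of the list was highest in HLI replicates 1 (0.89), 5 (0.58) and 3 (0.45). Pericyte and smooth muscle markers summed to 1029 to 1138 CPM and 807 to 1465 CPM (4 of 7 above 0), and Schwann cell markers to 166 to 602 CPM and 115 to 392 CPM (1 of 5 above 0). None of these markers was at 0 in all 10 libraries. The part of any of these cell types in the levels of the members was not tested.

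**Figure D5:**
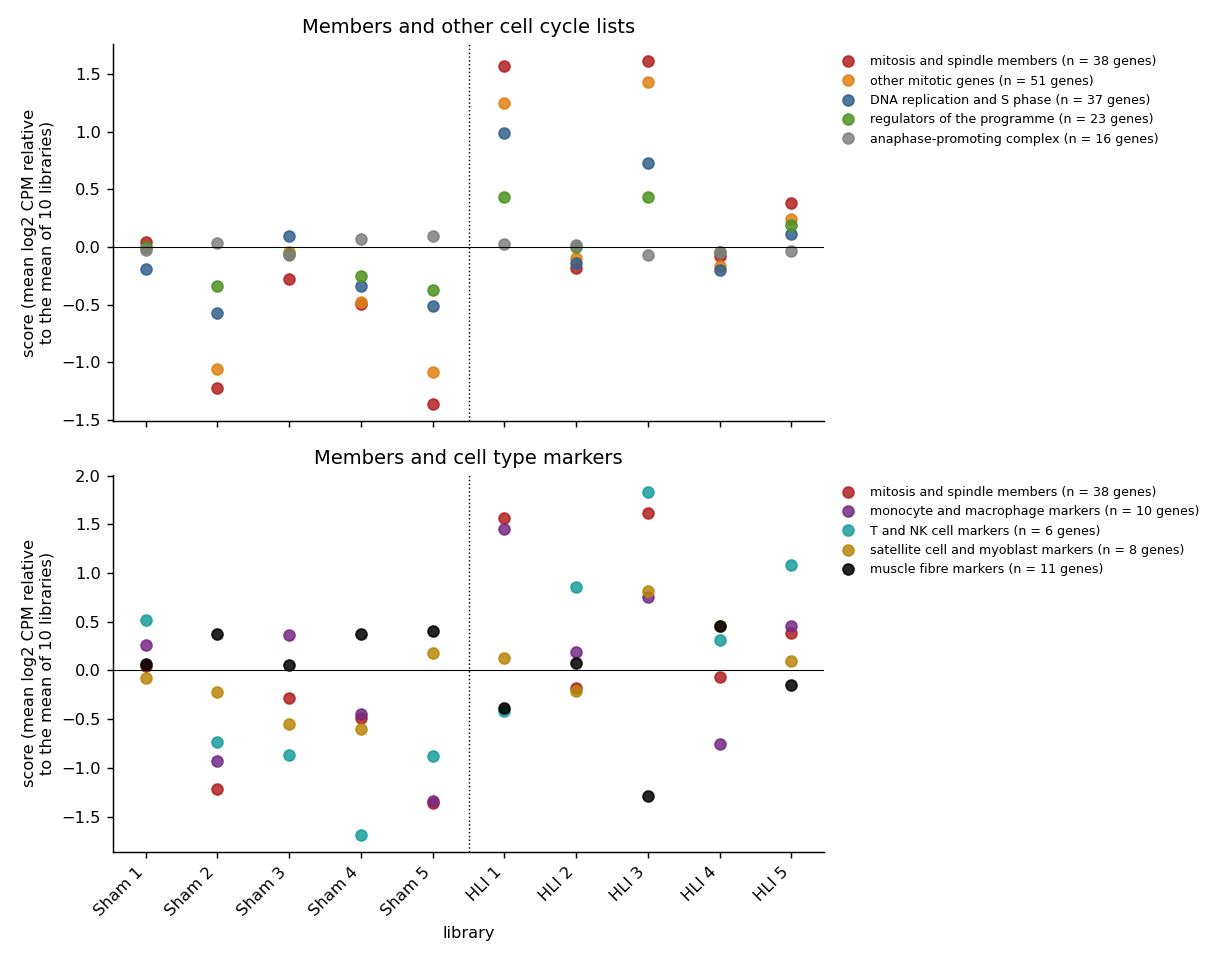
Score of each list in each library (vertical axis, mean log2 CPM of the list after subtracting each gene's average over libraries; no error bars, since each point is 1 library), for cell cycle lists above and cell type markers below. The members reach 1.57 and 1.61 in HLI replicates 1 and 3, the replication list 0.99 and 0.73, and the anaphase-promoting complex list stays between -0.07 and 0.10.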

How the data were processed

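Poly(A) RNA of 5 Sham and 5 HLI samples of gastrocnemius was sequenced as paired-end libraries, per the labels' protocols. The series text and the sample protocol differ on the RNA reagent and the sequencing company, and the protocol mentions adipose material, so the extraction is uncertain. Build mm8, Bowtie 0.12.2 and HISAT2 2.0 appear, without a role, per the submitters' processing notes. The authors deposited estimated counts, not normalized, and TPM values for 21956 genes, per the file headers. The counter, the annotation and the strand setting were not given in the sources used here. RefSeq promoters and GENCODE overlaps are of GRCm38, another build, and no coordinates of the deposited data are given.

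Estimated counts were rounded and tested in R 4.3.3 with the edgeR 4.0.16 quasi-likelihood test (TMM, no covariate). The filter, filterByExpr, asked for 10 counts, taken as CPM at the median library size, in at least 5 libraries, and 15 counts in all. Benjamini-Hochberg adjustment ran over the 13404 genes kept, called at 0.05. A standard error is the size of the log2 fold change divided by the square root of the F statistic. Scores used log2 CPM with a prior count of 2. On simulated counts for HLI against Sham over 13404 genes, 66% of 100 genes changed 2-fold and 94% of 100 changed 4-fold were recovered, and 8.05% of calls were false. The changed genes were drawn at random from all genes kept, and genes were simulated independently. The members varied more (median coefficient of variation 47.1% in Sham and 63.5% in HLI) than all genes tested (15.9% and 21.4%). The recovered shares therefore do not apply to the members. Alternatives were DESeq2 1.42.0, its size factors in edgeR, no filter, a robust prior, a block on the replicate number, runs without 1 library, and limma 3.58.1 on log2(TPM + 1) and log2(TPM + 0.1). TPM scaled by median of ratios was added after seeing the data. A planned search of protein sequences was not run. One set of cell type markers is not reported here.

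The members and lists were chosen with earlier results of these data known, so no p is given over the list alone. Values in every sample are given for the 2 members of each role with the highest mean TPM, the 5 smallest unadjusted p, the 5 largest changes, Mki67 and Top2a. From the other lists, the 2 genes with the smallest unadjusted p and 6 fixed genes are named, with group values or a log2 fold change. Other genes named were chosen after their values were seen.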

Additional observations from a re-analysis of the deposited data

Results flagged for a closer look

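In 2 of 80 groups of 5 libraries, 1 library stood apart from the other 4 by more than a 95% limit, which chance does in about 1 of 20 groups. Aurka was at 13.5 CPM in HLI replicate 1, whereas the 4 further HLI libraries spanned 6.46 to 8.31 CPM. Cenpa was at 6.03 CPM in Sham replicate 1, whereas the 4 further Sham libraries spanned 3.34 to 4.07 CPM.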

How the results depend on the processing

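The number of members called was 0 in edgeR, in each run without 1 library, with the replicate block, without the filter and on each TPM scale, and 11 with DESeq2. Each member kept the sign of its log2 fold change in all 684 values from these and the other alternatives. DESeq2 called 42 of all genes, against 0 in edgeR. The count of members higher at an unadjusted p under 0.05 was 35 as reported. With 1 library left out it lay between 28 (without HLI replicate 1, beside 11.2% of all genes) and 37 (without HLI replicate 2, beside 9.63%). In these runs the share of all genes lay between 5.14% (without HLI replicate 3, with 29 members) and 16.5% (without HLI replicate 4, with 35). The count was 31, beside 8.25% of all genes, once TPM had been scaled by median of ratios. The median log2 fold change, 1.5 as reported, lay between 1.20 and 1.73 without 1 library and was 1.06 on log2(TPM + 1), where a pseudocount understates the change of low genes. Unscaled TPM moved the median of all genes to 0.21, against which the members stood at 1.5 on log2(TPM + 0.1). The count of members without overlap lay between 9 and 16 without 1 library, where the share of all genes lay between 0.821% and 4.58% (the latter without HLI replicate 4, with 12 members). Apart from rescaling, leaving out a library cannot lower this count, so these runs could not show a fall. The count was 5 on unscaled TPM, beside 1.11% of all genes, and 7, beside 0.716%, on TPM scaled by median of ratios, which was chosen after seeing the data. The lowest edgeR adjusted p of a member was 0.081 without HLI replicate 4 and 0.57 without HLI replicate 3. On the strand of the gene alone the CCAAT box was in 15 members, against 23.7% of all genes, and before the start alone the CHR core was in 11. With the replicate number as a block 37 members were higher at an unadjusted p under 0.05, beside 12.8% of all genes, the median was 1.43, and the lowest adjusted p was 0.092. Same-numbered libraries correlated, after removal of group means, between -0.00898 and 0.275 (Pearson), and 2 of 5 Sham libraries correlated best with their own number, so the number was not taken as a pairing. Beyond the smaller number of samples or the pseudocount, the cause was not tested. Low counts limit Cdc25c, Ttk and Haspin, each with 1 count in a Sham library.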

Other observations

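The spacing of the promoter motifs was looked at after their positions had been seen. A CCAAT box starting 20 to 40 bases before a CHR core, each on either strand, was present in 13 of 31 members (41.9%), against 1.10% of 27025 genes with a promoter, 8 of 47 other mitotic genes and 2 of 31 genes of DNA replication. The 13 members were Ccnb2, Cdc20, Cdca8, Cdk1, Ect2, Hmmr, Kif11, Kif4, Mki67, Prc1, Top2a, Ttk and Ube2c. The window of 20 to 40 bases was set from the positions seen in the members, so their share is raised by that choice and the contrast with other genes carries no weight as evidence. No test was made.

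The 5 members with the highest Sham TPM (Aurka, Ube2c, Cenpa, Racgap1 and Cdk1, at 4.61 to 9.15 TPM) had a median log2 fold change of 1.02, although Cdk1 had 1.75. The 5 with the lowest (Cenpf, Cdc25c, Cenpe, Haspin and Aspm, at 0.302 to 0.425 TPM) had a median of 1.89. The Sham level enters both quantities, so the contrast is partly built in. Cdc25c, Cenpe, Haspin and Aspm also passed the filter only with the help of HLI libraries, a selection that favours high HLI values. No relation of change to level can therefore be drawn from these 2 sets. Pttg1, the other mitotic gene below 0 beside Aurka, was also abundant in Sham, at 89.3 TPM on average, against 73.6 TPM in HLI.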
